A study of Mus musculus with 9 samples.

Results

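The blood and lymphatic endothelium of the mouse jejunum was followed through 10 genes, Pecam1, Cdh5, Kdr, Flt1, Vwf, Plvap, Tek, Cav1, Lyve1 and Prox1, which were taken by name from the 31685 genes of an RNA sequencing table. All 10 were found, each under 1 Ensembl identifier, and 9 of them passed the filter for testing among 13056 genes. The libraries came from wild-type C57BL/6J mice, which the methods describe as males aged 6 to 8 weeks. The control group was 3 mice without treatment. The TAI group was 3 mice whose abdomen received total abdominal irradiation with X-rays, a single dose of 12 Gy. The TAI/IVIg group was 3 mice that received this dose and intravenous immunoglobulin (IVIg), a preparation of human IgG, at 500 mg/kg. The immunoglobulin was injected within 1 h and every 3 days, the irradiated controls were given PBS, and the jejunum was taken on day 3. The control group had neither irradiation nor PBS injection, so TAI against control compares both at once.

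Endothelial cells line blood and lymph vessels and are held together by junctions that contain PECAM-1 and VE-cadherin. Their growth and permeability are driven by VEGF ligands acting on the receptors VEGFR1, VEGFR2 and VEGFR3, and their quiescence by angiopoietins acting on TIE2. In the villus, fenestrated blood capillaries take up nutrients beside a central lymphatic lacteal that carries chylomicrons, and the endothelium of the gut is a known target of irradiation.

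The values are FPKM, fragments scaled to gene length and to library depth, so levels may be set side by side between genes. In the control group Plvap had the highest mean level with 22.9 FPKM ± 9.75 (SD, n = 3), followed by Cav1 with 16.6 ± 1.88 and Lyve1 with 16.6 ± 6.23. Pecam1 had a mean of 7.81 ± 3.09, followed by Cdh5 (3.17 ± 0.984), Kdr (2.67 ± 1.59) and Tek (2.10 ± 0.802), where neighbours among these last 3 differed by less than their SDs. Flt1 (1.31 ± 0.604), Vwf (0.820 ± 0.482) and Prox1 (0.304 ± 0.0731) were the lowest of the 10. Whole reads could be recovered from the FPKM values, and the library totals were 16284386 to 18244535 reads with overlapping ranges between groups. The members with the fewest reads were Prox1 (20 to 74 reads per mouse), Tek (77 to 252) and Lyve1 (95 to 1167).

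The labels call the samples jejunal epithelial tissue, and the markers showed more than epithelium in every library. Epcam, an epithelial adhesion gene, had a control mean of 983 FPKM ± 98.5 (SD, n = 3), and the summed level of 8 smooth muscle genes was 506 to 651 in the control mice. Some libraries stood apart in what else they held. The summed level of 9 lymphocyte genes, a list added after the values were seen, was 412 FPKM in control mouse 3 and 4.65 to 83.4 in the other 8 mice, with all 9 genes highest in that mouse. The summed level of 8 adipocyte genes was 269 in TAI mouse 3 and 63.0 to 117 in the other 8. TAI/IVIg mouse 3 had the lowest sums of smooth muscle genes (118 FPKM, against 313 to 794 in the other 8) and of fibroblast genes (33.9, against 61.5 to 144). Values without these libraries are given beside the results where they stand out.

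Irradiation against no treatment was tested with limma on log2(FPKM + 1), and fold changes below are on that scale, which understates changes of low genes. Of the 9 members tested, 1 was called higher (Flt1) and 1 lower (Lyve1) in TAI than in control at an adjusted p under 0.05. Among all genes tested 34.9% were called, 8.81% higher and 26.1% lower, and 2 of 9 members is a lower share than that of the table. The members' median change was 0.33 and that of all genes tested was -0.23 (log2). That general shift matters for the direction of calls: with the library medians set equal, 5 members were called, Cdh5, Kdr, Flt1 and Plvap higher and Lyve1 lower, against 30.5% of all genes, a higher share of the members than of the table, and the share of all calls that were higher went from 25.2% to 54.2%. In this tissue fewer endothelial cells and less RNA per cell cannot be told apart. The p-values set the difference between groups against the spread between mice within groups, estimated from all 9 mice.

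**Figure D1:**
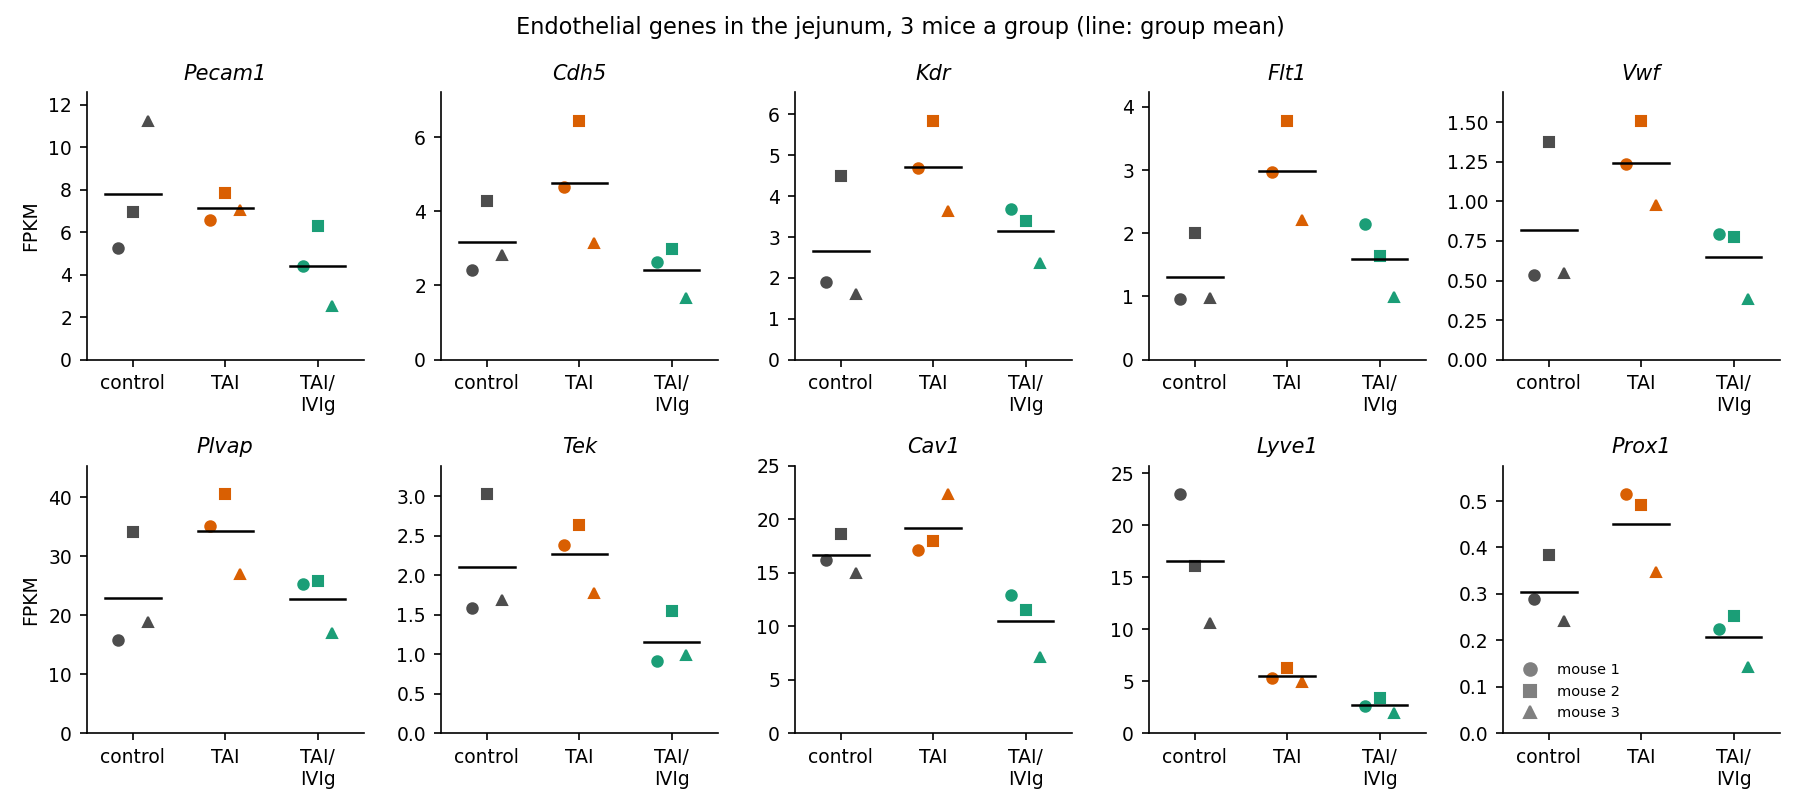
Level in FPKM (y axis, from 0) of each of the 10 endothelial genes in every mouse of the 3 groups (3 mice each, symbols give the mouse number, lines the group mean). Lyve1 falls from group to group without overlap, Flt1 is higher in every TAI mouse than in every control mouse, and the TAI/IVIg mice lie below the TAI mice for all genes but Kdr.

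The VEGF receptors were the members that were highest in the TAI group relative to control. Flt1 encodes VEGFR1, which binds VEGF-A with high affinity and, as a membrane or soluble form, limits its access to VEGFR2. Its level was 0.959, 2.01 and 0.971 FPKM in control mice 1 to 3, 2.98, 3.78 and 2.21 in the TAI mice, and 2.14, 1.64 and 0.993 in the TAI/IVIg mice. Every TAI mouse was above every control mouse, which held in this direction for 15.1% of all genes tested and among the tested members only for Flt1. The log2 fold change was 0.80 (SE 0.24, adjusted p = 0.0336), or 1.03 relative to the median of all genes. The call was lost when any of 4 mice was left out: without control mouse 1, control mouse 3, TAI mouse 1 or TAI mouse 2, Flt1 had a log2 fold change of 0.69, 0.70, 0.79 or 0.66 and an adjusted p of 0.0874, 0.104, 0.0960 or 0.106.

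Kdr encodes VEGFR2, the main signalling receptor for VEGF-A in endothelium. Its level was 1.90, 4.50 and 1.61 FPKM in control mice, 4.69, 5.85 and 3.63 in TAI mice and 3.69, 3.40 and 2.36 in TAI/IVIg mice. Control mouse 2 lay above TAI mouse 3, so these groups overlapped, and the log2 fold change of TAI against control was 0.71 (SE 0.29) with an adjusted p of 0.0866. Same-numbered control and TAI mice deviated from their group means together, but the largest correlation was between mice of different numbers (0.408, control mouse 3 and TAI/IVIg mouse 2). With the replicate number as a block the adjusted p for Kdr was 0.0321, past the threshold. Without control mouse 2 the log2 fold change of Kdr was 1.04 with an adjusted p of 0.0181. The ratio of Flt1 to Kdr within a library was 0.447 to 0.605 in the control mice and 0.609 to 0.647 in the TAI mice, so the larger fold for Flt1 was seen in each pair of mice but by a small margin.

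The RefSeq promoter table (GRCm38.p6) held 5 of the 10 members (Kdr, Flt1, Tek, Cav1 and Prox1). Shown are the 250 bases before the start of Flt1 and Kdr, the VEGF receptors with the largest changes, and of Tek, the angiopoietin receptor that did not move with them, each 5′ to 3′ on the strand of its gene. Capitals mark the letters GGAAG, a form of the site that ETS factors bind, on either strand (CTTCC on the other). Other forms, the shorter GGAA among them, were not counted and are not marked. Flt1 lies on the minus strand at chr5:147726012-147726261, Kdr on the minus strand at chr5:75978456-75978705 and Tek on the plus strand at chr4:94739039-94739288.
Flt1: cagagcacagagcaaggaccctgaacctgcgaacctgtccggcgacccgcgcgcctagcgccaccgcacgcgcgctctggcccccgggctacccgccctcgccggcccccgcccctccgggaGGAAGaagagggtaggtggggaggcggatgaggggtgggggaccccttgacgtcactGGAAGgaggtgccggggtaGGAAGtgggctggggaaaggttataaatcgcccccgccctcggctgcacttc
Kdr: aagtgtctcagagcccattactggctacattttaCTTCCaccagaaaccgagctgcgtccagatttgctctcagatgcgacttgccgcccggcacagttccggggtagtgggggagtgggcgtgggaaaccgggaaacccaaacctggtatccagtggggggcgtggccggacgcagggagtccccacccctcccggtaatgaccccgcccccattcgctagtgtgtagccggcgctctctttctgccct
Tek: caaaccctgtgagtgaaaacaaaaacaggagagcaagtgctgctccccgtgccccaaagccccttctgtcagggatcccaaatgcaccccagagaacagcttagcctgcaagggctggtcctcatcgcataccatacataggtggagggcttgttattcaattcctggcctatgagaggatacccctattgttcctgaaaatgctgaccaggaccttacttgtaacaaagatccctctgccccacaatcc
The letters GGAAG occurred 3 times upstream of Flt1, 1 time upstream of Kdr and 0 times upstream of Tek. The Tek stretch does hold the shorter GGAA on the other strand (TTCC). Of the members not shown, Prox1 held GGAAG 1 time before its first start and 3 times before its second, and Cav1 0 times before either start. Of the 32851 promoters in the table, 64.1% held GGAAG at least once and 10.7% at least 3 times in the same window. The letters ACGTG, a form of the site bound by hypoxia-inducible factors, were in none of these 3 stretches and in 16.6% of all promoters. The form GCGTG was not counted, and the Kdr and Flt1 stretches hold it, in Flt1 on the other strand (CACGC). The GC box GGGCGG occurred 3 times before Flt1, 2 times before Kdr and 0 times before Tek, against 32.7% of promoters with at least 1. The TATA box TATAAA was found 31 to 26 bases before the start of Flt1, in neither of the other 2 stretches, on the opposite strand before the first starts of Cav1 and Prox1, and in 12.4% of all promoters. These matches describe letters and were not tested against the expression values.

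Ligands of these receptors were read within a list of 13 VEGF, angiopoietin, apelin and adrenomedullin pathway genes, which also holds genes that are not their ligands. Of the 13, 7 passed the filter. After TAI 3 of the 7 were called higher and 0 lower, against 8.81% and 26.1% of all genes, with a median log2 fold change of 0.33. Vegfa, the main ligand of VEGFR2, was at 25.9, 24.2 and 17.1 FPKM in the control mice and at 87.7, 76.8 and 107 in the TAI mice, a log2 fold change of 1.97 (SE 0.22, adjusted p = 0.000729). The TAI/IVIg mice had 95.8, 65.0 and 96.4 FPKM of Vegfa, all above control and overlapping the TAI mice. Apln, the ligand of the apelin receptor, had a log2 fold change of 1.44 (adjusted p = 0.00946), and Adm, which encodes the vasodilator adrenomedullin, one of 1.26 (adjusted p = 0.0198). Vegfc and Vegfd, ligands of VEGFR3 that were chosen after their values were seen, had log2 fold changes of -0.04 and 0.14 in TAI against control, neither called.

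Tek encodes TIE2, the receptor of the angiopoietins. Its level was 1.59, 3.03 and 1.69 FPKM in control mice, 2.38, 2.63 and 1.78 in TAI mice and 0.909, 1.55 and 0.987 in TAI/IVIg mice. TAI and control overlapped, with a log2 fold change of 0.09 (SE 0.21, adjusted p = 0.748) and a 95% interval of -0.38 to 0.57. The angiopoietins themselves were below the filter: Angpt2, which antagonizes TIE2 in activated endothelium, had means of 0.624 FPKM ± 0.288 in control mice, 1.29 ± 0.579 in TAI mice and 0.536 ± 0.336 in TAI/IVIg mice (SD, n = 3 each), and was chosen for mention after its values were seen.

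Pecam1 encodes a junctional adhesion molecule that platelets and leukocytes also carry. Its level was 5.24, 6.94 and 11.2 FPKM in control mice, 6.55, 7.84 and 7.04 in TAI mice and 4.39, 6.30 and 2.53 in TAI/IVIg mice. The highest value was in control mouse 3, the lymphocyte-rich library described above. TAI against control gave a log2 fold change of -0.06 (SE 0.30, adjusted p = 0.890), which turned to 0.21 without control mouse 3 and to 0.23 with library medians set equal, with no call in any of these. The part of leukocytes in the Pecam1 values was not tested.

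Cdh5 encodes VE-cadherin, the adhesion molecule of endothelial adherens junctions, and is the member most restricted to endothelium. Its level was 2.41, 4.28 and 2.82 FPKM in control mice, 4.67, 6.44 and 3.14 in TAI mice and 2.63, 2.98 and 1.66 in TAI/IVIg mice. The ranges of control and TAI overlapped, and the log2 fold change was 0.45 (SE 0.26, adjusted p = 0.208, 95% interval -0.14 to 1.04). A list of 30 other endothelial genes, of which 25 were tested, had a median log2 fold change of 0.36 after TAI. In it 3 were called higher and 0 lower, against 8.81% and 26.1% of all genes. The 3 were Esam, a junctional adhesion molecule (0.67, adjusted p = 0.0172), Sox18, a transcription factor of vessel development (0.43, adjusted p = 0.0252), and Shank3 (0.55, adjusted p = 0.0407). Shank3 was below 1 FPKM in every control mouse, so it passed the filter through irradiated mice. Without control mouse 3, 0 of the 25 were called, against 21.9% of all genes, and the median of the list was 0.34. With the library medians set equal 12 were called higher and 0 lower, against 2159 and 1823 of 13056 genes tested.

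Vwf and Plvap mark blood endothelium by what it secretes and by its pores. Vwf encodes von Willebrand factor, a secreted protein that captures platelets, and its level was 0.537, 1.38 and 0.547 FPKM in control mice, 1.24, 1.51 and 0.979 in TAI mice and 0.793, 0.773 and 0.386 in TAI/IVIg mice. Vwf passed the filter only through control mouse 2 and TAI mice 1 and 2, and its log2 fold change in TAI against control was 0.33 (SE 0.21, adjusted p = 0.251). Plvap encodes the protein of the diaphragms of fenestrae and caveolae, and is high in the fenestrated capillaries of the villus. It was at 15.8, 34.0 and 18.8 FPKM in control mice, 35.1, 40.5 and 27.0 in TAI mice and 25.3, 25.8 and 16.9 in TAI/IVIg mice. As for Kdr, control mouse 2 was the control that reached the TAI range, and the log2 fold change of Plvap was 0.61 (SE 0.29, adjusted p = 0.128). Without control mouse 2 it was 0.93 and was called.

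Of a list of 14 endothelial activation and coagulation genes, 12 were tested, and 9 of these had positive log2 fold changes in TAI against control, with a median of 0.37. Among all genes tested 33.6% had positive log2 fold changes. The selectins of the list, which capture leukocytes on activated endothelium, were below the filter in all groups, with Selp means of 0.147 FPKM ± 0.0843 in control mice, 0.544 ± 0.352 in TAI mice and 0.0916 ± 0.0934 in TAI/IVIg mice (SD, n = 3 each), chosen for mention after they were seen.

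Cav1 encodes caveolin-1, the coat protein of caveolae, and is shared by endothelium, smooth muscle, fibroblasts and adipocytes. Its level was 16.2, 18.7 and 15.0 FPKM in control mice, 17.1, 18.0 and 22.4 in TAI mice and 12.9, 11.5 and 7.08 in TAI/IVIg mice. TAI and control overlapped (log2 fold change 0.19, SE 0.21, adjusted p = 0.502), and the highest value was in the adipocyte-rich TAI mouse 3, without which the log2 fold change was 0.08 (adjusted p = 0.814). Of 8 other caveola genes, 7 were tested, and 1 was called after TAI, against 34.9% of all genes. Pacsin2, a membrane-bending protein found in many cell types, fell by 1.06 on the log2 scale (adjusted p = 0.00396).

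Lyve1, which encodes a hyaluronan receptor of lymphatic endothelium that some tissue macrophages also carry, showed the largest change among the members. It was at 23.0, 16.1 and 10.6 FPKM in control mice, at 5.34, 6.25 and 4.88 in TAI mice and at 2.63, 3.43 and 1.94 in TAI/IVIg mice. No 2 groups overlapped. In TAI against control every TAI mouse was below every control mouse, which held for 38% of all genes tested, and the log2 fold change was -1.38 (SE 0.26, adjusted p = 0.00531), or -1.14 relative to the median of all genes. Mean Lyve1 was 3.02 times higher in control than in TAI. The call held in every alternative run, with log2 fold changes between -1.65 and -1.09.

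Prox1, the transcription factor that sets and keeps lymphatic identity, was too low to be tested. Its level was 0.288, 0.384 and 0.241 FPKM in control mice, 0.515, 0.490 and 0.346 in TAI mice and 0.225, 0.253 and 0.142 in TAI/IVIg mice. Control mouse 2 lay above TAI mouse 3, so control and TAI overlapped, with the higher mean in TAI. In a fit without the filter the log2 fold change of TAI against control was 0.15 (adjusted p = 0.279). Exons of Prox1 overlap an antisense gene, Prox1os, and whether the counting used strand is not given in the sources used here. Prox1 is also expressed in enteroendocrine cells, whose markers are given among the closing observations, and their part was not tested.

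No other lymphatic gene tested was called lower after TAI. Of a list of 12, 8 were tested, with a median change of 0.19 (log2) after TAI. In it 1 was called higher and 0 lower, against 8.81% and 26.1% of all genes. The gene called was Stab1, which encodes a scavenger receptor of sinusoidal and lymphatic endothelium and of macrophages, at 4.22, 4.31 and 2.85 FPKM in control mice, 7.18, 7.72 and 9.40 in TAI mice and 9.38, 7.55 and 9.03 in TAI/IVIg mice. Its log2 fold change was 0.93 (adjusted p = 0.00447). Mmrn1 (0.26) and Pdpn (0.58) had positive log2 fold changes that were not called, and Flt4, which encodes VEGFR3, was below the filter with means of 0.646 FPKM in control mice, 0.905 in TAI mice and 0.423 in TAI/IVIg mice. Ccl21a, the chemokine of lymphatic endothelium and of lymphoid stroma, ranged from 8.26 to 91.8 FPKM within the control group, with the highest value in the lymphocyte-rich control mouse 3. Mmrn1, Pdpn, Flt4 and Ccl21a were picked for mention after their values were seen.

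Macrophage genes were read beside Lyve1 and Stab1 because macrophages can carry both. Of 8 macrophage genes, 7 were tested, and 1 was called after TAI, against 34.9% of all genes. Cd68, a lysosomal macrophage protein, fell by 0.95 on the log2 scale (adjusted p = 0.0131). The summed level of the 8 was 129 to 143 FPKM in control mice, 104 to 128 in TAI mice and 59.9 to 114 in TAI/IVIg mice. Control and TAI were barely apart, with a lowest control sum of 128.7 and a highest TAI sum of 127.9. Among single genes tested, every TAI mouse was below every control mouse for 38%. Of the 7, 6 had negative log2 fold changes, where 33.6% of all genes tested had positive ones. The median of the 7 was -0.09, against -0.23 for all genes tested. With the library medians set equal 1 of the 7 was below 0, and 1 was called lower. The part of macrophages in the values of Lyve1 and Stab1 was not tested.

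**Figure D2:**
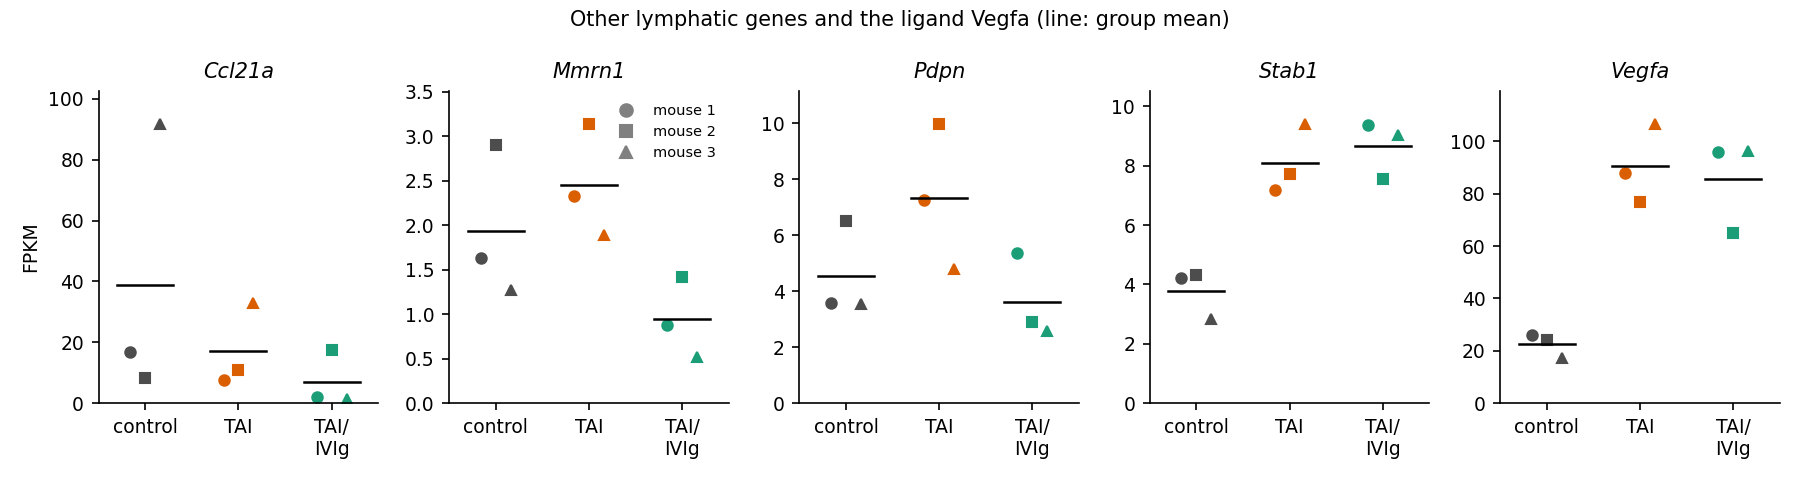
Level in FPKM (y axis, from 0) of the lymphatic genes Ccl21a, Mmrn1, Pdpn and Stab1 and of the ligand Vegfa in each mouse of the 3 groups (symbols give the mouse number, lines the group mean). Stab1 and Vegfa are higher in every irradiated mouse than in every control mouse, and Ccl21a is spread widely by control mouse 3 at 91.8 FPKM.

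TAI/IVIg was compared with TAI to ask what immunoglobulin changed in irradiated jejunum. At an adjusted p under 0.05 limma called 0 of the 9 tested members and 0% of all genes, and voom on the recovered reads also called 0 members. Without the filter 4 genes and with the replicate block 3 were called, of which 0 were members. All 9 tested members had lower fitted values in TAI/IVIg than in TAI mice, their log2 fold changes running from -0.45 (Vwf) to -0.84 (Lyve1 and Cav1) and a median of -0.63, against -0.13 for all genes tested. Among all genes tested 30.4% had log2 fold changes above 0. At an unadjusted p under 0.05, 5 of the 9 members were lower, against 11.2% of all genes. They were Cav1 (-0.84, SE 0.21, adjusted p = 0.353), Lyve1 (-0.84, SE 0.26, adjusted p = 0.353), Tek (-0.61, SE 0.21, adjusted p = 0.359), Cdh5 (-0.73, SE 0.26, adjusted p = 0.360) and Flt1 (-0.63, SE 0.24, adjusted p = 0.364). For 8 of the 9, all but Kdr, every TAI/IVIg mouse was below every TAI mouse, as it was for 16.1% of all genes, and for untested Prox1 every TAI/IVIg mouse was below every TAI mouse too. The TAI mice of this comparison are those of TAI against control, so the 2 sets of values share them.

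The size of these differences depended on libraries and scaling, and their direction did not in any alternative run. The values of TAI/IVIg mouse 3 were the lowest of their group for 9 of the 10 members, all but Tek. Without TAI/IVIg mouse 3, the members' median was -0.45 and 2 of 9 were lower at an unadjusted p under 0.05, against 4.35% of all genes. Without TAI mouse 1 or TAI mouse 2, 2 of 8 tested members were, against 7.87% and 5.91% of all genes. With the library medians set equal the median was -0.42 and 1 of 9 was, against 4.44% of all genes. With quantile normalization 1 of 9 was (4.67% of all genes), and with voom on median-ratio library sizes 3 of 9 were (7.9%). Other alternatives gave more: 7 of 9 with voom on the recovered reads without that rescaling (12.2% of all genes), 7 with the replicate block (12.5%), 8 in the fit of the 6 mice compared (11.9%) and 9 in that fit with the block (13.6%).

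**Figure D3:**
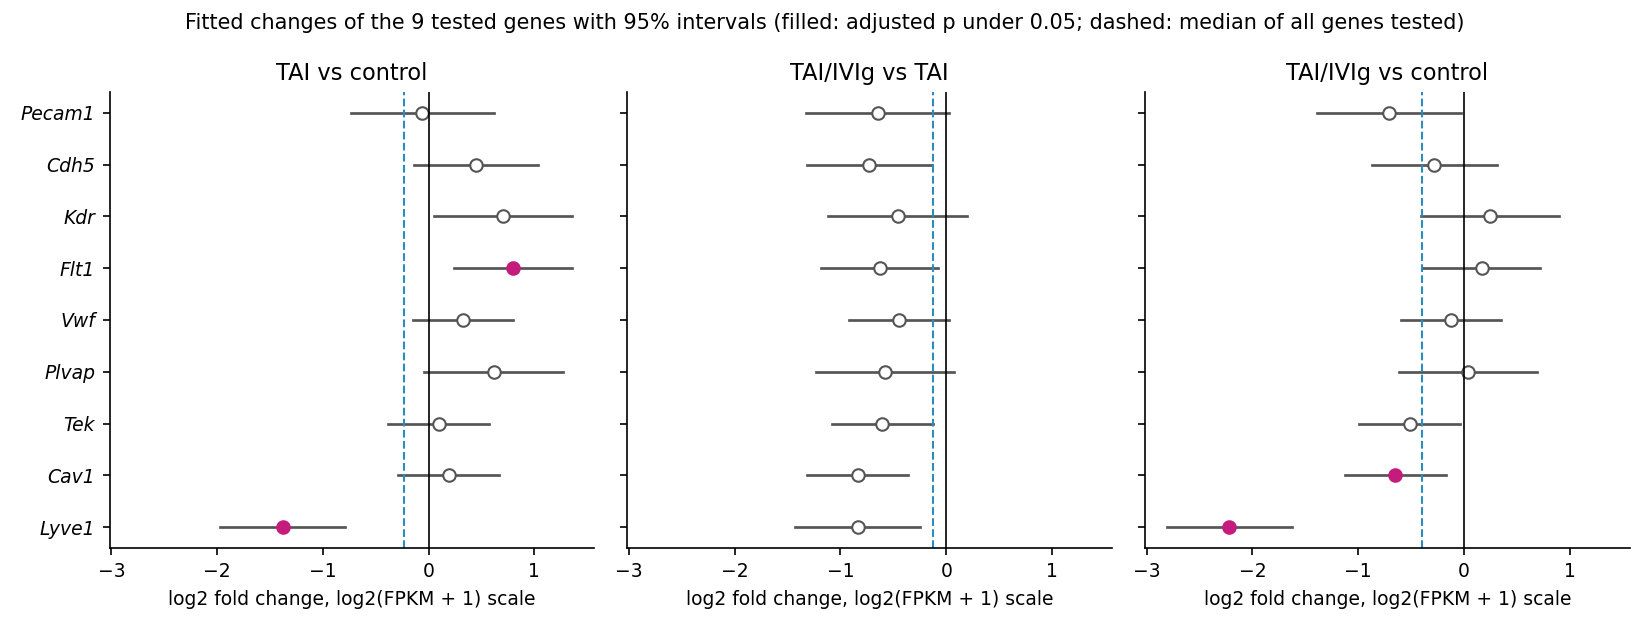
Log2 fold change on the log2(FPKM + 1) scale (x axis) of the 9 tested endothelial genes in TAI against control, TAI/IVIg against TAI and TAI/IVIg against control, with 95% intervals as bars. Filled points passed an adjusted p of 0.05 (Flt1, Cav1 and Lyve1), and the dashed line is the median of all 13056 genes tested, at -0.23, -0.13 and -0.39.

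Genes of other stromal cells had negative values in TAI/IVIg against TAI as well. Among all genes tested 30.4% were above 0 in this comparison, and 11.2% were lower at an unadjusted p under 0.05. All 8 smooth muscle genes and all 8 fibroblast genes had negative log2 fold changes, with medians of -1.16 and -0.95, and each of these 16 had an unadjusted p under 0.05 although 0 were called after adjustment. The smallest unadjusted p belonged to Lmod1 among the smooth muscle genes (-1.17, adjusted p = 0.353) and to Dcn among the fibroblast genes (-1.31, adjusted p = 0.353). With the library medians set equal, 3 of the smooth muscle and 5 of the fibroblast genes had such a p, against 4.44% of all genes. Without TAI/IVIg mouse 3 all 16 were still below 0, with medians of -0.63 for smooth muscle and -0.68 for fibroblast genes. In that run 4 and 5 of 8 had such a p, against 4.35% of all genes. The summed smooth muscle level was 552 to 794 FPKM in TAI mice and 118 to 566 in TAI/IVIg mice, and the summed fibroblast level 106 to 142 and 33.9 to 78.6. Of 5 tested pericyte genes all 5 had negative values (median -0.89) and 0 were called, with Abcc9 (-1.18, adjusted p = 0.359) having the smallest unadjusted p, and without TAI/IVIg mouse 3 their median was -0.39. Enterocyte markers went the other way, with 8 of 8 above 0, a median of 0.23 and 0 called. The part of the stromal content of each sample in the endothelial values was not tested.

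In the companion endothelial lists 0 genes were called either. Among all genes tested 30.4% were above 0 in this comparison, and 11.2% were lower at an unadjusted p under 0.05. Between TAI/IVIg and TAI, 25 of 25 tested genes of the other endothelial list were below 0, their median being -0.47, and 13 of them had an unadjusted p under 0.05, with that of Esam the smallest (-0.64, adjusted p = 0.353). With the library medians set equal 23 of 25 were below 0 and 4 had such a p, against 4.44% of all genes. Without TAI/IVIg mouse 3, 24 of 25 were below 0, with a median of -0.35, and 4 had such a p, against 4.35% of all genes. In the activation list, of which 12 were tested, 11 were below 0, and F3, the tissue factor gene that starts coagulation, had the smallest unadjusted p (-1.45, adjusted p = 0.353). In the caveola list 6 of 7 were below 0, the smallest unadjusted p being that of Cavin2 (adjusted p = 0.353). In the lymphatic list 7 of 8 were below 0, the smallest unadjusted p being that of Mmrn1 (-0.84, adjusted p = 0.353), and in the angiogenic list 7 of 7, the smallest being that of Vegfd (-0.66, adjusted p = 0.353). Stab1 (0.09) and Vegfa (-0.09) had log2 fold changes near 0, with adjusted p of 0.829 and 0.872.

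**Figure D4:**
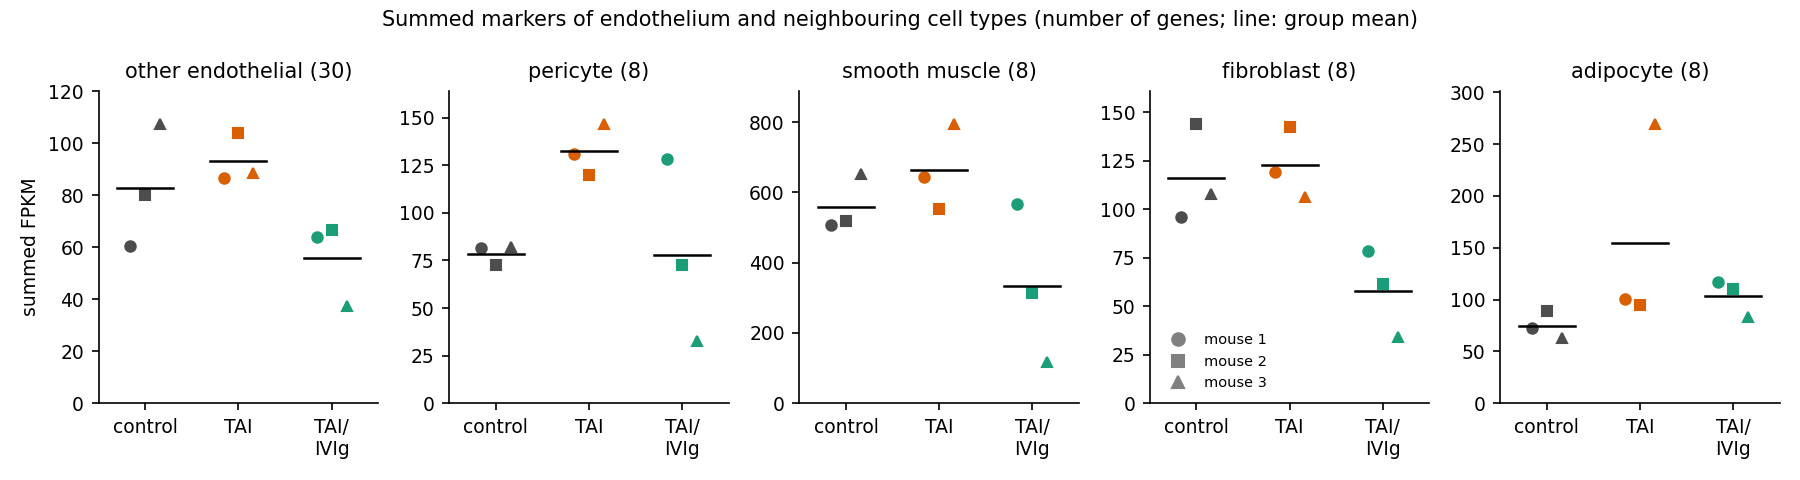
Summed FPKM (y axis, from 0) of 30 other endothelial, 8 pericyte, 8 smooth muscle, 8 fibroblast and 8 adipocyte genes in each mouse of the 3 groups (symbols give the mouse number, lines the group mean). TAI/IVIg mouse 3 has the lowest sum in the first 4 panels, and TAI mouse 3 stands at 269 in the adipocyte panel.

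TAI/IVIg was also set against control, the comparison of treated irradiated mice with untreated mice. Of the 9 members, 2 were called lower and 0 higher, against 46.4% of all genes called, 37.4% lower and 9.06% higher. Lyve1 was lower with a log2 fold change of -2.22 (SE 0.26, adjusted p = 0.000553), and its mean was 6.21 times higher in control. Cav1 was lower with a log2 fold change of -0.65 (SE 0.21, adjusted p = 0.0324), with every TAI/IVIg mouse below every control mouse. Tek was also lower in every TAI/IVIg mouse than in every control mouse (-0.51, adjusted p = 0.0745, and 0.0273 with the replicate block or 0.0858 with the block in the fit of 6 mice), so this held for 3 of the 9 members and for 44.3% of all genes.

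The other members stood closer to control. The log2 fold changes of Plvap (0.04), Flt1 (0.17) and Kdr (0.25) were above 0 and those of Vwf (-0.12), Cdh5 (-0.28) and Pecam1 (-0.71, adjusted p = 0.0806) below, and none was called. The median of all genes was -0.39 here, and with the library medians set equal Cdh5 and Vwf turned to 0.21 and 0.37. The share of all calls that were higher went from 19.5% to 60.3% with that scaling. The Cav1 call rested on the scaling and on single libraries: its adjusted p was 0.606 with library medians set equal, and 0.0869 without TAI/IVIg mouse 3, 0.0619 without control mouse 1, 0.0967 without control mouse 2 and 0.0539 without control mouse 3. The Lyve1 call held in every alternative run.

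Ratios to Cdh5 within a library show how the members changed relative to an endothelial gene, whatever the scaling of the library. With 3 mice against 3, the smallest p of the exact permutation test is 0.1, so none could pass 0.05. In TAI against control, 3 of 9 ratios did not overlap between groups, against 41.8% of all genes. The mean log2 ratio of Flt1 to Cdh5 was -1.32 ± 0.22 in control and -0.64 ± 0.13 in TAI mice, a difference of 0.68. That of Tek was -0.61 ± 0.12 and -1.03 ± 0.24, a difference of -0.42, and that of Lyve1 2.36 ± 0.78 and 0.26 ± 0.34, a difference of -2.10. Each had an exact two-sided permutation p of 0.1, the smallest possible, and 0.3 after adjustment over the 9 ratios (SD, n = 3).

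Between TAI/IVIg and TAI, 1 ratio to Cdh5 did not overlap, that of Plvap, at 3.24 ± 0.12 against 2.89 ± 0.23 (exact permutation p = 0.1, adjusted 0.9, n = 3), which is 1 of 9 ratios against 31.6% of all genes. The ratio of Lyve1 differed by -0.12 and that of Flt1 by 0.01 between these groups (exact permutation p = 0.9 and 1). In TAI/IVIg against control 5 of 9 ratios did not overlap, Kdr, Flt1 and Plvap being higher and Tek and Lyve1 lower relative to Cdh5, against 28.6% of all genes, each with an exact permutation p of 0.1 and 0.18 after adjustment. These values depended on the reference: relative to Pecam1, 2 of 9 ratios did not overlap in TAI against control (36.4% of all genes), 0 between TAI/IVIg and TAI (38.2%) and 1 between TAI/IVIg and control (24.4%).

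**Figure D5:**
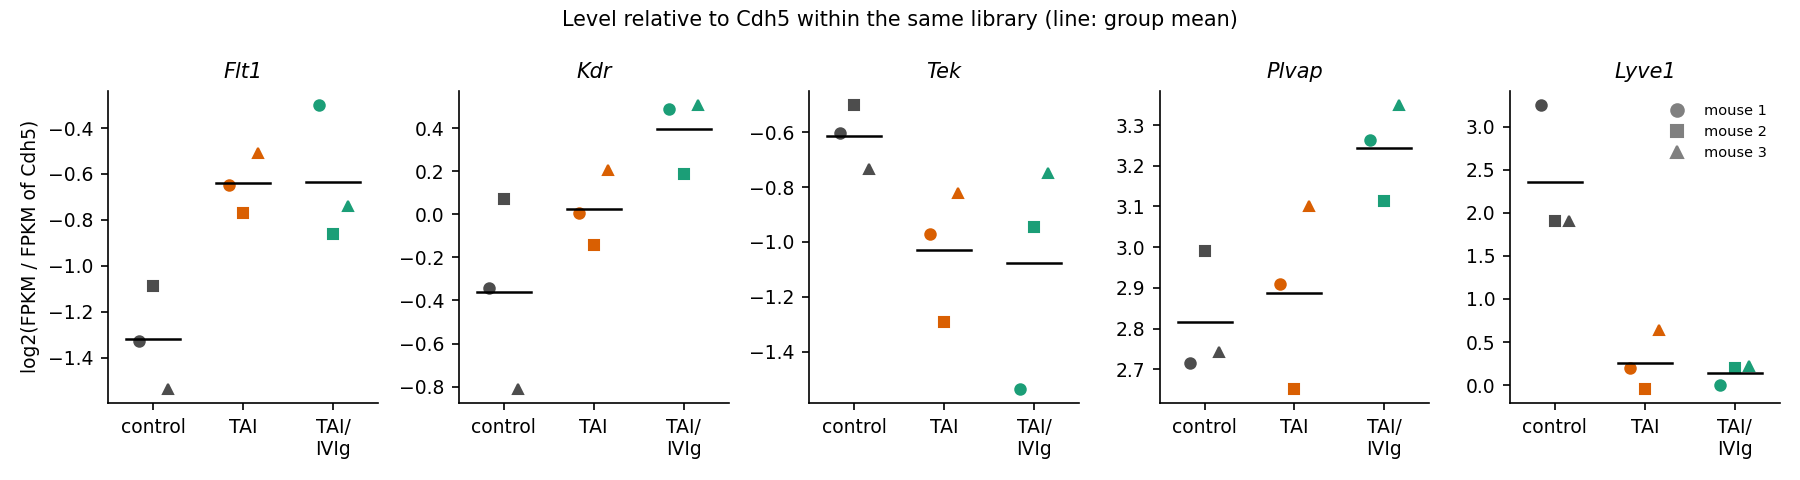
Log2 of the FPKM of Flt1, Kdr, Tek, Plvap and Lyve1 divided by the FPKM of Cdh5 in the same library (y axis) for each mouse of the 3 groups (symbols give the mouse number, lines the group mean). Flt1 is higher and Tek and Lyve1 are lower relative to Cdh5 in every TAI mouse than in every control mouse.

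The members were compared with each other by the root mean square difference of their centred log2(FPKM + 1) values over the 9 mice, given as a description. Kdr and Plvap were the closest pair at 0.137, with Flt1 at 0.139 from Kdr, and Vwf was nearest to Plvap at 0.175. Cdh5 was nearest to Vwf at 0.179. Lyve1 was the farthest from each of the other 8 tested members, at 0.799 to 1.14. Of the genes outside the members, Efna4 (0.105), Mmp2 (0.129) and Mmrn2 (0.132) had the profiles nearest to Cdh5, and Cd34 (0.0728), Acer2 (0.0846) and Ror2 (0.0847) those nearest to the members' median.

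On GRCm38 the called members lie on 3 chromosomes, all as protein-coding genes. Flt1 (ENSMUSG00000029648) spans chr5:147561604-147726011 on the minus strand, Cav1 (ENSMUSG00000007655) chr6:17306335-17341452 on the plus strand and Lyve1 (ENSMUSG00000030787) chr7:110850607-110863239 on the minus strand. For all 10 members the gene length behind the FPKM values equalled the union of their annotated exons in GENCODE M21, so each value is an exonic level over all isoforms, membrane and soluble forms of Flt1 included.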

How the data were processed

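Jejunal RNA of 9 mice was analysed, 3 per group, grouped by the treatment labels. The authors deposited 1 FPKM value per gene and mouse, without pooling (0 columns left out). The submitters' notes name FastQC, Trimmomatic, STAR, featureCounts and DESeq2 and the builds mm10 and GRCm38, and the annotation release and strand setting are not given in the sources used here. Whole reads were recovered for 31685 genes (100% of values, relative tolerance 2e-08), and the gene lengths implied by the FPKM values equalled GENCODE M21 exon unions within 0.5 bases for 96.5% of genes.

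A gene was tested if 3 or more mice reached an FPKM of 1, on log2(FPKM + 1) with limma 3.58.1 in R 4.3.3, with all 9 mice, a term per group, a trended empirical Bayes step and Benjamini-Hochberg adjustment over 13056 genes per comparison. Ratios were tested with exact permutation in scipy 1.17.1. The steps were tested on simulated data. The members and the 15 companion lists were chosen with earlier results of these data known. From each list the text names up to 3 called genes per direction by adjusted p, or the smallest unadjusted p where none was called. Symbols came from a table that matched 31146 identifiers, and 1 platelet gene was not matched. Which genes of the activation list were called after irradiation is not reported here.

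Same-numbered control and TAI mice deviated together from their groups (correlations of 0.271, 0.241 and 0.308), but not throughout for the TAI/IVIg mice. The largest correlation of all pairs was that of control mouse 3 with TAI/IVIg mouse 2 (0.408), which differ in number. Control mouse 3, TAI mouse 3 and TAI/IVIg mouse 2 had the highest lymphocyte sums of their groups (412, 78.7 and 83.4 FPKM). The number thus pairs control and TAI mice only as a hint from the data, and the design as set has no block. The alternatives changed the pseudocount (0.1), the filter (none, or a mean of 5 FPKM), the scaling (equal library medians, quantiles), the mice fitted (6), the trend (none), the block (replicate number) or the tool (voom on recovered reads, also with median-ratio sizes), left out each mouse, and, chosen after seeing the data, mouse 3 of each group left out, the companion lists without 1 mouse 3, and Pecam1 ratios over all genes.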

Additional observations from a re-analysis of the deposited data

How the results depend on the processing

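Percentages in brackets are the shares of all genes called in the same run. In TAI against control, 2 members were called (34.9%). Without the filter 1 was called (12.1%), and with a mean FPKM of at least 5 also 1 (47.8%). With mouse 3 of each group left out 1 was called (10.6%). With library medians set equal 5 were called (30.5%), and with quantile normalization 5 (32.8%). Voom on median-ratio library sizes gave 4 (29.8%) and a members' median of 0.86. Leaving out each mouse gave 1 to 4 called members (18.1% to 37.8%) and medians of 0.22 to 0.46. With the replicate block 3 members were called (37.2%), Kdr being added, and that pairing changed no other call of this comparison. In TAI/IVIg against control, 2 were called (46.4%). The count was 1 without the filter (18.1%), with library medians set equal (36.6%), with quantile normalization (35.7%) and in the fit of the 6 mice (37.2%). It was also 1 in that fit with the replicate block (30.1%), with voom on median-ratio sizes (36.7%) and with mouse 3 of each group left out (15.8%). With the block in the fit of 9 mice 3 were called (47.3%), Tek being added. The members' median was -0.28, -0.68 with a mean FPKM of at least 5, 0.21 with library medians set equal, 0.19 with quantile normalization and 0.11 with voom on median-ratio sizes. Leaving out each mouse gave 1 to 4 called members (34% to 46.8%) and medians of -0.41 to -0.11. In TAI/IVIg against TAI, 0 members were called in every alternative, with medians of -0.74 to -0.45 when each mouse was left out. When each mouse was left out, ratios to Cdh5 without overlap numbered 3 to 5 in TAI against control, 1 to 4 in TAI/IVIg against TAI and 5 to 8 in TAI/IVIg against control. With all 9 mice, they numbered 0 and 1 relative to Pecam1 in the latter 2 comparisons. Leaving out a mouse of a compared group leaves 2 mice against 3, so a ratio can lose its overlap but not gain one. The share of all genes without overlap is not given for these runs, so their counts have no baseline here. Without the filter more genes are tested, and with the stricter filter only 4 members are. The cause of the other changes was not tested. Read counts limit Prox1 most (20 to 74 reads per mouse). Among all genes, TAI against control gave 1150 higher and 3411 lower calls, 2159 and 1823 with library medians set equal, 537 and 761 with mouse 3 of each group left out, and 698 and 1645 without TAI mouse 1, 846 and 1768 without control mouse 2 and 851 and 1910 without control mouse 3. TAI/IVIg against control gave 1183 higher and 4880 lower, 2880 and 1894 with library medians set equal, and 555 and 1383 with mouse 3 of each group left out. Without TAI/IVIg mouse 2 the called members of that comparison were 4, with 46.8% of all genes called.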

Other observations

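Arterial and Notch genes were a further list, of which 4 of 10 were tested. After TAI 1 was called higher, against 8.81% of all genes. It was Dll4, a Notch ligand found in sprouting and arterial endothelium, with means of 7.40 FPKM after TAI and 3.53 in control (log2 fold change 0.85, adjusted p = 0.0215). With the library medians set equal 3 were called higher, against 2159 of 13056 genes tested. Against control, Dll4 in TAI/IVIg mice was called higher too (0.72, adjusted p = 0.0308), with a mean of 6.54 FPKM. Which cells of the tissue gave the Dll4 values was not tested. Between TAI/IVIg and TAI 3 of 4 had negative log2 fold changes, where 30.4% of all genes tested were above 0. Of the 4, 0 were called, with Jag1 (-0.47, adjusted p = 0.389) having the smallest unadjusted p. The endothelial nitric oxide synthase gene Nos3 was below the filter, with means of 0.410 FPKM in control mice, 1.07 in TAI mice and 0.442 in TAI/IVIg mice, and was chosen for mention after its values were seen.

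The calls after TAI below stand against 8.81% of all genes called higher and 26.1% lower. Platelet genes, which bear on Vwf and Pecam1, had a summed level of 0.812 to 1.76 FPKM in control mice, 3.21 to 3.62 in TAI mice and 2.14 to 2.87 in TAI/IVIg mice. The 1 gene tested, Pf4, was called higher after TAI (1.06, adjusted p = 0.00762), with 2 to 15 reads per control mouse and 26 to 30 per TAI mouse. Most of the sum was Pf4 and Itga2b. From control to TAI mean Gp1bb went from 0.0827 to 0 FPKM, Gp6 from 0.00645 to 0 and Gp1ba from 0.163 to 0.166. Platelet content was not tested. Haemoglobin genes, a sign of blood in the sample, summed to 5.56 to 11.5 FPKM in control mice, 3.01 to 3.84 in TAI mice and 3.96 to 4.81 in TAI/IVIg mice, and both genes tested (Hba-a1 and Hbb-bs) were called lower after TAI, but 0 with library medians set equal or voom on median-ratio sizes and 1 with quantile normalization. Of the 8 tested enteroendocrine genes, which bear on Prox1, 1 was called higher after TAI (Sst) and 2 lower (Chga and Cck), and between TAI/IVIg and TAI Gcg had the smallest unadjusted p (-1.54, adjusted p = 0.353). Of 7 tested adipocyte genes 1 was called higher after TAI (Lipe, 1.08, adjusted p = 0.00120), and in TAI/IVIg against TAI Plin4 had the smallest unadjusted p (-1.35, adjusted p = 0.353). Of 8 enterocyte genes 5 were called higher after TAI, against 8.81% of all genes, with Apoa4, Alpi and Apoa1 having the smallest adjusted p. Another 2 of the 8 were below 0, of which 1 had an unadjusted p under 0.05. Mean Sis was 381 FPKM in control and 171 in TAI mice, and mean Vil1 994 and 953. Of the 8 smooth muscle, 8 fibroblast and 5 tested pericyte genes 0 were called in TAI against control, with 0, 0 and 2 at an unadjusted p under 0.05.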
